A study of Mus musculus with 4 samples.

Results

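The vacuolar proton pump (V-ATPase) is a rotary complex that acidifies organelles and, in some epithelia, moves protons across the plasma membrane. Its cytosolic V1 sector splits ATP and its membrane V0 sector carries the protons. Several subunits are encoded by paralogous genes, of which one or more are used in most cells and another is known chiefly from particular tissues such as kidney, inner ear, epididymis or osteoclasts. The values reported here are those of 10 mouse genes chosen by symbol: Atp6v1a (subunit A, with no paralogue), the subunit B genes Atp6v1b1 and Atp6v1b2, the subunit C genes Atp6v1c2 and Atp6v1c1, the subunit a genes Atp6v0a4, Atp6v0a1 and Atp6v0a2, and the subunit d genes Atp6v0d2 and Atp6v0d1. Atp6v1b1, Atp6v1c2, Atp6v0a4 and Atp6v0d2 are called restricted below and their paralogues ubiquitous, as background from other tissues. The 10 genes are 22 of the 45101 probe sets and 10 of the 18193 genes with a symbol of their own. The family was taken up with the large fall of Atp6v1c2 between these same arrays already known, so that difference is given as a description.

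RNA levels in mammary tissue were read on 4 Affymetrix arrays, of which 2 came from mice labelled STAT5 KO and 2 came from mice labelled STAT5 WT. STAT5 is the transcription factor through which prolactin acts on mammary epithelium. The design text gives 2 mice per genotype and a collection time of 6 days, with no event from which the days are counted. The labels name no strain, age, deleted gene segment or Cre driver and give the treatment as none, and the title of the series names STAT5A and luminal progenitor cells, the epithelial cells that give rise to milk-secreting alveoli. All p-values rest on the spread between these few samples.

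Stat5a, in its brighter probe set, had signals of 1836 and 861 on the KO arrays, against 2307 and 2061 on the WT arrays, and Stat5b had 1069 and 712 on the KO arrays, against 1522 and 1506 on the WT arrays. Both were lower on both KO arrays, and neither passed a threshold of 0.05 on the p adjusted over all tested probe sets (limma adjusted p = 0.246 for Stat5a and 0.102 for Stat5b). The second probe sets gave log2 differences of -1.22 for Stat5a and -0.97 for Stat5b, also without passing. Without KO replicate 1 both genes were lower past the threshold. Which gene or segment was deleted is not given in the labels, so these probe sets do not check the genotype. Luminal keratins and basal keratins were bright on all arrays. Krt8 had 4378 and 7431 on the KO arrays, against 5248 and 6253 on the WT arrays, and Krt5 had 804 and 2041 on the KO arrays, against 2380.25 and 2483 on the WT arrays. The epithelial gene Epcam had 4233 and 6330 on the KO arrays, against 9145 and 8659 on the WT arrays. The log2 difference was -0.01 for Krt8, 0.30 for Krt18, -0.91 for Krt5, -0.59 for Krt14 and -0.78 for Epcam, none past the threshold. KO replicate 1 stood lower than the other arrays in epithelial genes: the summed signal of 18 general epithelial markers was 35834 and 55980 on the KO arrays, against 51754 and 54034 on the WT arrays, with no marker at 0.

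Atp6v1c2 was the one member that fell, and it fell to 9.21% of its WT signal. Subunit C joins the stators of the V1 sector to subunit a, and in yeast its release accompanies the reversible separation of V1 from V0. Atp6v1c2 had signals of 56.2 and 100.5 on the KO arrays, against 872 and 829 on the WT arrays. The KO arrays did not overlap the WT arrays, and KO replicate 1 was the lower of the KO arrays. The mean was 78.3 ± 31.3 in KO tissue and 850.4 ± 30.1 in WT tissue (SD, n = 2 each), which put KO replicate 1 at 6.61% and KO replicate 2 at 11.8% of the WT mean. The log2 difference (KO minus WT, here and throughout, of log2(signal + 16)) was -3.24 with an SE of 0.26, and 7 of the 11360 tested genes were lower by more. Both KO signals lay below the medians of their arrays, 121 and 124, and both WT signals above theirs, 131 and 131. Detection calls were not used here, so how much of the remaining KO signal was background was not tested. A single probe set measures this gene.

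In whole tissue, fewer cells of a type and less RNA per cell cannot be told apart. Of the 18 general epithelial markers tested, the epithelial ETS factor gene Ehf fell by 1.78 (limma adjusted p = 0.0435), the keratin gene Krt7 rose by 1.02 (adjusted p = 0.0484) and 16 did not pass. Their median log2 difference was -0.43, against -0.01 over all tested genes, and stood at -0.68 on KO replicate 1 and at -0.16 on KO replicate 2. Of all tested genes 1.36% passed and were lower in KO, and 1.21% passed and were higher. With each array centred on these markers, the log2 difference of Atp6v1c2 was -2.91. Neither Ehf nor Krt7 passed with no filter, with a filter at the 75th percentile, without trend or when probe sets were averaged per gene. Krt7 also did not pass with quantile normalization or with arrays centred on these markers.

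**Figure D1:**
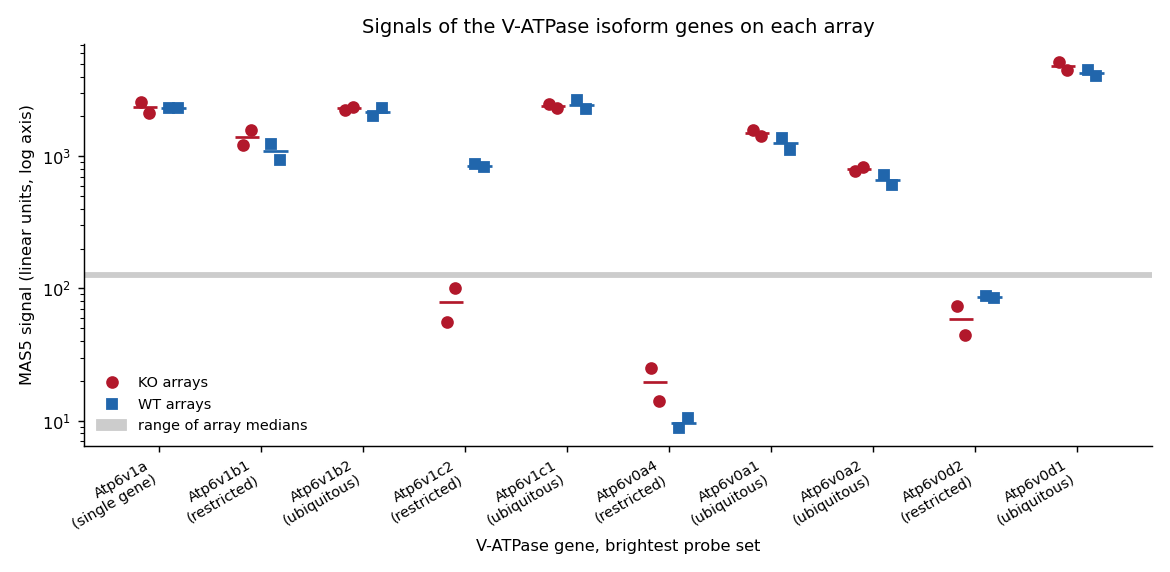
MAS5 signals (linear units on a log axis) of the 10 V-ATPase isoform genes in their brightest probe sets, with KO arrays as red circles left of WT arrays as blue squares, short lines for group means (n = 2 each) and a grey band for the range of array medians. Atp6v1c2 lies above the band on the WT arrays and below it on the KO arrays, whereas Atp6v0a4 and Atp6v0d2 lie below the band on all 4 arrays and the other 7 genes above it.

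Only probe sets with a mean signal of about 126 or more were tested, and 8 of the 10 genes and 17 of the 22 probe sets reached it. Atp6v1c2 reached it through its WT signals. Of the 8 tested members 1 passed and was lower in KO, 0 passed and were higher, and 7 did not pass, where 2.57% of all tested genes passed, 1.36% lower and 1.21% higher in KO. At an unadjusted p under 0.05 the count in limma was also 1 of 8, where 21.3% of all tested genes had such a p. Nothing is read from this count, since the members were chosen with this contrast known. The median log2 difference of the 8 was 0.13, against -0.01 over all tested genes.

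Atp6v1c1, the ubiquitous C gene, did not share the fall. Its signals were 2501 and 2301 on the KO arrays, against 2651 and 2269 on the WT arrays. The genotypes overlapped, with a log2 difference of -0.03 (95% interval -0.36 to 0.30). Its other 2 probe sets gave -0.04 and 0.15. The log2 ratio of Atp6v1c2 to Atp6v1c1, taken on each array relative to its WT mean, stood at -3.61 and -2.80 on the KO arrays, against -0.08 and 0.08 on the WT arrays. The change of the ratio was -3.21 with an SE of 0.41. These ratios were not tested, because the smallest two-sided p of an exact permutation of 2 against 2 arrays is 0.333.

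Of the 10 genes, 6 have a promoter window in the RefSeq table used here (build GRCm38.p6). The 250 bases before the annotated start are shown for 3 of them: the member that fell, the restricted B gene, which did not pass, and the single gene of subunit A. Capitals mark matches to the motifs searched on both strands. Atp6v1c2 lies on the minus strand at chr12:17324731-17324980, Atp6v1b1 on the plus strand at chr6:83742767-83743016 and Atp6v1a on the minus strand at chr16:44139260-44139509, and each sequence reads 5′ to 3′ along its gene.
Atp6v1c2: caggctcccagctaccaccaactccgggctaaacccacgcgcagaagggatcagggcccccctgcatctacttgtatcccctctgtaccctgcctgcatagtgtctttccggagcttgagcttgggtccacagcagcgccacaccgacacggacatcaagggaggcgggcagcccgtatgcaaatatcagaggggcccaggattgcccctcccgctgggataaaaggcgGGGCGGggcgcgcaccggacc
Atp6v1b1: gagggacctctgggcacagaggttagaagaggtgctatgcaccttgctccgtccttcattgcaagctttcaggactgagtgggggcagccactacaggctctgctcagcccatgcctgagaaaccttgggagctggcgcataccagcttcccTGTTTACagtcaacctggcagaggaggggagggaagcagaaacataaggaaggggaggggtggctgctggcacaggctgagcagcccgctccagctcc
Atp6v1a: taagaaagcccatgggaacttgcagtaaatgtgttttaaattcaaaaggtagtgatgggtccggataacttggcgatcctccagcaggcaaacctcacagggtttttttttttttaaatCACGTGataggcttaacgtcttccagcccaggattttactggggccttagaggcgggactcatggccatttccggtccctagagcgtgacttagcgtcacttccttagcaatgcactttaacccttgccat

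The motifs were the STAT5 site TTCNNNGAA, the E-box CACGTG bound by MiT/TFE factors, the forkhead core TGTTTAC, the GC box GGGCGG and the TATA box TATAAA. No matches overlapped each other in the 6 windows. The window of Atp6v1c2 held 1 GC box, starting 21 bases before the start, a motif found in 32.7% of all 32851 windows of this length. The window of Atp6v1b1 held 1 forkhead core, 98 bases before the start, found in 3.17% of all windows. The window of Atp6v1a held 1 E-box, 131 bases before the start, found in 6.02% of all windows. The letters TTCNNNGAA stood in 0 of the 6 windows and in 7.02% of all windows. The 250 bases of Atp6v1c2 had 15 CpG, those of Atp6v0d1 had 18, those of Atp6v1a had 8, those of Atp6v0a1 had 4, those of Atp6v1b1 had 3 and those of Atp6v0a4 had 1, where the median window had 6. The restricted genes thus lay on both sides of the median.

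The genes of subunits A and B of V1 did not pass. Subunit A binds and splits ATP together with subunit B. Atp6v1a had 2580.45 and 2141 on the KO arrays, against 2329.9 and 2337 on the WT arrays, so both WT arrays lay between the KO arrays. Its log2 difference was 0.01 (95% interval -0.33 to 0.35), and its other probe set gave -0.04. Atp6v1b2, the ubiquitous B gene, had 2253 and 2376 on the KO arrays, against 2022 and 2299.8 on the WT arrays. These overlapped, with a log2 difference of 0.10 (95% interval -0.22 to 0.42). A further tested probe set of Atp6v1b2, of a type that can match more than 1 transcript, gave 0.13, and its 2 remaining probe sets were too dim to be tested.

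Atp6v1b1, the restricted B gene, gave signals well above the array medians in both genotypes. It is known from proton-secreting cells of the kidney, inner ear and epididymis. Its signals were 1208 and 1579 on the KO arrays, against 1239 and 937 on the WT arrays. The genotypes overlapped, with KO replicate 2 the highest and WT replicate 2 the lowest array. The log2 difference was 0.35 (95% interval -0.12 to 0.83). Its ratio to Atp6v1b2 changed by 0.25 with an SE of 0.33, and leaving out an array gave -0.04 to 0.54.

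**Figure D2:**
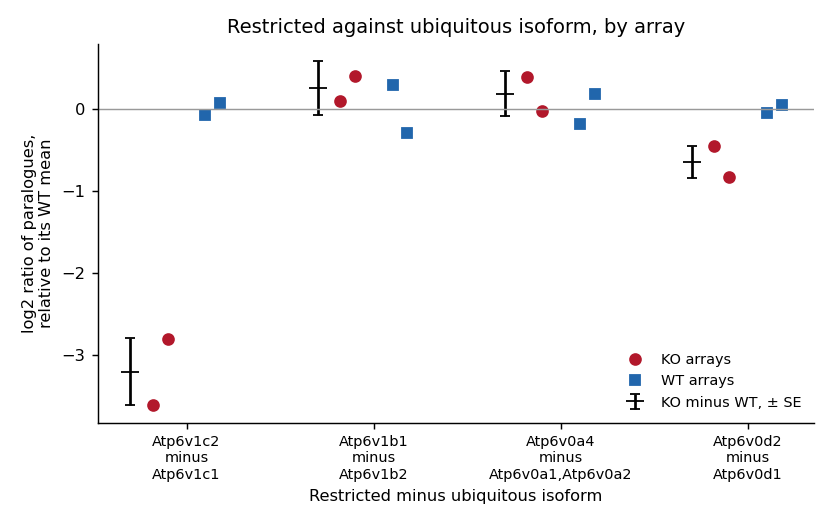
Log2 ratio of each restricted isoform to its ubiquitous paralogue (for Atp6v0a4, to the mean of 2 paralogues) on each array, relative to the WT mean of that ratio, with KO arrays as red circles left of WT arrays as blue squares and the KO minus WT difference with its SE in black (n = 2 each). The ratio for subunit C lies at -3.61 and -2.80 on the KO arrays, and the other 3 ratios stay between -0.83 and 0.41 on all arrays.

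Subunit a forms the half-channels through which protons pass the membrane, and its isoforms direct the pump to different membranes. Atp6v0a1 had 1573 and 1436 on the KO arrays, against 1386 and 1116 on the WT arrays. Atp6v0a2 had 779 and 829 on the KO arrays, against 720.2 and 607 on the WT arrays. In these brightest probe sets both genes stood higher on both KO arrays, with log2 differences of 0.27 for each and 95% intervals of -0.11 to 0.65 for Atp6v0a1 and -0.10 to 0.65 for Atp6v0a2, and neither passed. The genotypes did not overlap in 53.7% of all tested genes: 26.2% stood higher and 27.5% lower on both KO arrays.

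The direction of both genes depended on the probe set. The other 3 probe sets of Atp6v0a1 gave 0.09, -0.09 and -0.27. The other 2 probe sets of Atp6v0a2 gave -0.29 and -0.43. The one at -0.43 had 378 and 365 on the KO arrays, against 492 and 519.6 on the WT arrays, so that both KO arrays lay lower. Averaged over all probe sets, the differences were -0.00 for Atp6v0a1 and -0.15 for Atp6v0a2.

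Atp6v0a4, the restricted a gene, was dim throughout, with 24.9 and 14.2 on the KO arrays, against 8.86 and 10.4 on the WT arrays. The KO arrays were the higher, at signals far below the array medians. No test was made at this level, and the log2 difference of 0.46 was 0.91 with a pseudocount of 1 and 0.18 with a pseudocount of 64.

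Subunit d sits between the membrane ring and the central stalk. Atp6v0d1, the ubiquitous d gene, had 5146 and 4506 on the KO arrays, against 4502 and 4078 on the WT arrays. The KO arrays were just above the WT arrays, by 0.17 (95% interval -0.14 to 0.48), without passing. Atp6v0d2, known from osteoclasts, macrophages and kidney, had 73.8 and 44.5 on the KO arrays, against 87.9 and 85.3 on the WT arrays. Both KO arrays were lower, and the values were too dim to be tested (log2 difference -0.48). Its other probe set overlapped, at 27.4 and 53.8 on the KO arrays, against 73.0 and 46.3 on the WT arrays. The ratio of Atp6v0d2 to Atp6v0d1 changed by -0.64 with an SE of 0.20, and that of Atp6v0a4 to the mean of Atp6v0a1 and Atp6v0a2 by 0.18 with an SE of 0.28.

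**Figure D3:**
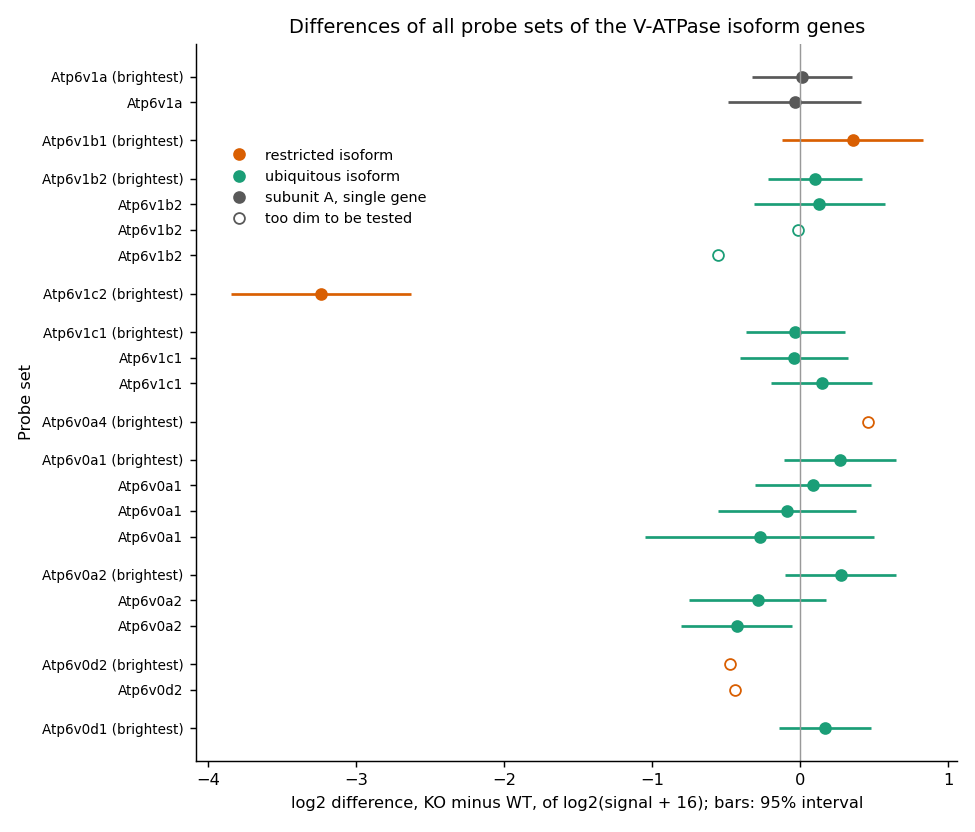
Log2 difference, KO minus WT, of each of the 22 probe sets of the 10 genes, with 95% intervals from limma for the 17 tested and open circles for the 5 too dim to be tested. The Atp6v1c2 probe set lies at -3.24, and the 16 other tested probe sets lie between -0.43 and 0.35.

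Among the 6 genes other than the restricted isoforms, the brightest probe sets differed by -0.03 to 0.27, and their 95% intervals together ran from -0.36 to 0.65. All tested probe sets of these 6 genes together differed by -0.43 to 0.27. The differences of the 4 restricted isoforms were -3.24 for Atp6v1c2, -0.48 for Atp6v0d2, 0.35 for Atp6v1b1 and 0.46 for Atp6v0a4. Of these, Atp6v0d2 and Atp6v0a4 were too dim to be tested and Atp6v1b1 did not pass. Whether the restricted isoforms moved as a class was not tested. Atp6v1b1, Atp6v1c2, Atp6v0a4 and Atp6v0d1 have 1 probe set each, so no second probe set bears on them.

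The other tested subunits of the pump stayed near the ubiquitous isoforms. Of 15 further subunit genes listed, 13 were measured and 12 tested, and in limma 0 passed in either direction, 0 had an unadjusted p under 0.05, and the smallest adjusted p was 0.396. Their median log2 difference was 0.10, with single genes between -0.06 and 0.24 and 95% intervals between -0.48 and 0.69. Among the V1 subunits, the central stalk gene Atp6v1d had 2378 and 2378 on the KO arrays, against 2177 and 1871 on the WT arrays (0.24), and Atp6v1g2, a stator gene known from neurons, gave 0.16. Among the V0 and accessory subunits, the ring gene Atp6v0b had 2839 and 2941 on the KO arrays, against 2829 and 2179.6 on the WT arrays (0.22), and the accessory gene Atp6ap1 gave 0.17. Tcirg1, which encodes the a3 isoform of osteoclasts and lysosomes, gave 0.13. Atp6v0c and Atp6v1g3 were listed but not measured. Atp6v1e2 was too dim to be tested, and had 74.2 and 59.6 on the KO arrays, against 80.1 and 74.3 on the WT arrays.

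Assembly and regulatory factors of the pump also gave no call in limma. All 10 listed were tested, 0 passed, 0 had an unadjusted p under 0.05, and the median was 0.06. The largest differences were 0.37 for Oxr1, of the TLDc family whose yeast member takes part in disassembly of the pump, and 0.24 for Tbc1d24.

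**Figure D4:**
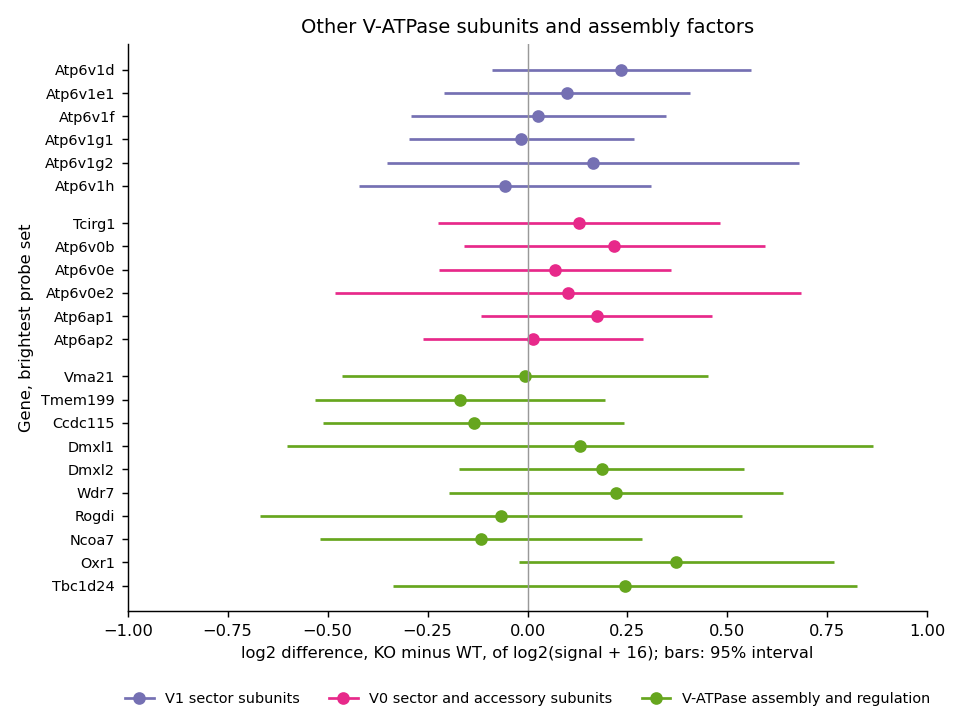
Log2 difference, KO minus WT, with 95% intervals from limma, of the tested V-ATPase subunit genes outside the isoform set (6 of V1, 6 of V0 and accessory proteins) and of 10 assembly and regulatory genes. All points lie between -0.17 and 0.37, and every interval includes 0.

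Genes that work beside the pump in acid and bicarbonate transport changed in both directions. Of 16 listed, 15 were measured and 7 tested, of which 2 rose, 1 fell and 4 did not pass, where 1.21% of all tested genes rose and 1.36% fell. An unadjusted p under 0.05 was given by 4 that were higher in KO and 1 that was lower, where 21.3% of all tested genes had one. The median of the 7 was 0.71, against -0.01 over all tested genes. It depended on the filter: the median was 0.18 over the 15 measured genes with no filter and 0.44 with a filter at the 75th percentile. Foxi1 encodes a forkhead factor needed in mice for the expression of pump subunits in proton-secreting cells of the inner ear, kidney and epididymis. It had 460.0 and 504 on the KO arrays, against 158 and 105 on the WT arrays, and rose by 1.78 with an SE of 0.23 (limma adjusted p = 0.0265). Both KO arrays stood at least at 460.0 and both WT arrays at or below 158. Atp6v1b1 and Atp6v0a4, given above, did not pass or were too dim.

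Rhbg encodes an ammonia transporter of epithelia. It had 406 and 349 on the KO arrays, against 151 and 135 on the WT arrays, and rose by 1.31 with an SE of 0.19 (limma adjusted p = 0.0324). Car2 encodes cytosolic carbonic anhydrase II, which supplies protons and bicarbonate from carbon dioxide. It had 324 and 413 on the KO arrays, against 894 and 943 on the WT arrays, and fell by 1.29 with an SE of 0.17 (limma adjusted p = 0.0308). Each of these 3 genes was measured by 1 probe set. The genotypes did not overlap in these 3, named because they passed, as in 53.7% of all tested genes.

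The other tested partners did not pass. Slc4a4, a sodium bicarbonate cotransporter, had 758 and 1098 on the KO arrays, against 321 and 580.2 on the WT arrays (log2 difference 1.05, limma adjusted p = 0.124), and Car4, a membrane-bound carbonic anhydrase, gave 0.71 (adjusted p = 0.0934). The anion exchanger gene Slc4a2 gave 0.18 and Car12 gave -0.02. Slc4a1 and Slc26a4, anion exchanger genes of kidney intercalated cells, were too dim to be tested. Slc4a1 had 13.8 and 30.5 on the KO arrays, against 28.0 and 12.9 on the WT arrays, and Slc26a4 had 19.7 and 7.24 on the KO arrays, against 42.8 and 46.7 on the WT arrays.

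The 3 calls did not all hold with an array left out. Foxi1 lost its call without WT replicate 2 (1.51, adjusted p = 0.0912), Rhbg lost its call without WT replicate 1 (0.0752), without WT replicate 2 (0.159) and without KO replicate 1 (0.0549), and Car2 lost its call without WT replicate 1 (0.0760) and without WT replicate 2 (0.153). All 3 lost their calls with no filter, and Car2 also when arrays were centred on epithelial markers (-0.97, adjusted p = 0.367). Over the 13 alternatives the adjusted p ran from 0.000108 to 0.0959 for Foxi1, from 0.0113 to 0.159 for Rhbg and from 0.00786 to 0.367 for Car2 where they were tested.

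**Figure D5:**
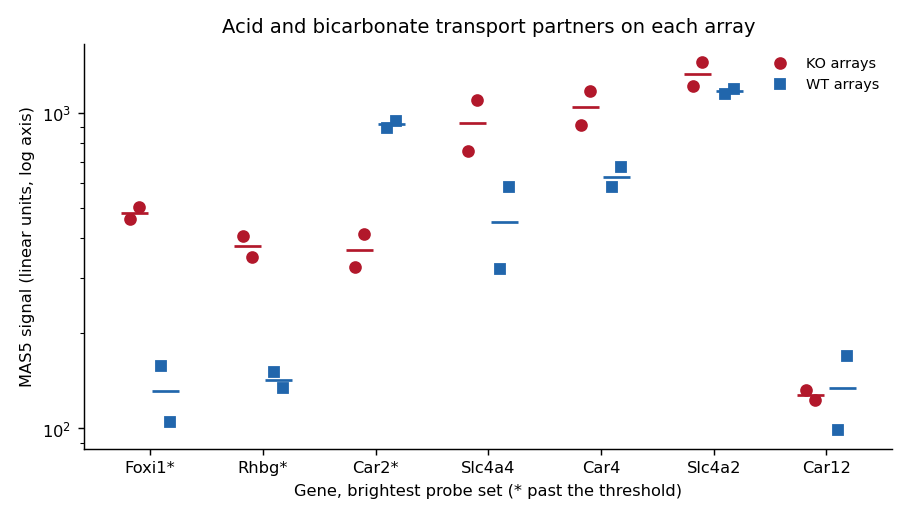
MAS5 signals (linear units on a log axis) of the 7 tested acid and bicarbonate transport genes, with KO arrays as red circles left of WT arrays as blue squares, short lines for group means (n = 2 each) and an asterisk for genes past the threshold. Foxi1 and Rhbg lie higher and Car2 lower on both KO arrays.

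Lysosomes are the main site of the ubiquitous pump. Of 25 lysosomal genes listed, 22 were measured and tested. In limma 0 passed, and 5 of the 22 had an unadjusted p under 0.05, near the 21.3% of all tested genes. All 5 were higher in KO. Of the 22, 11 stood higher and 1 lower on both KO arrays, where 26.2% and 27.5% of all tested genes did. The median of the 22 was 0.20, with single genes between -0.14 and 0.61. Hexa, a subunit of beta-hexosaminidase, had 5579 and 5382 on the KO arrays, against 3980 and 3239 on the WT arrays (log2 difference 0.61, limma adjusted p = 0.0786), and the cholesterol transporter gene Npc1 gave 0.55. Npc1 passed without KO replicate 1. The MiT/TFE factors, which bind CACGTG sites of lysosomal and pump genes, had a median of 0.32. In limma 0 of 3 tested passed and 1 had an unadjusted p under 0.05. Mitf gave 0.50 (limma adjusted p = 0.135) and Tfeb 0.32 (adjusted p = 0.300).

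Cell types known for pump isoforms were looked at through their markers. Of 15 macrophage markers, all tested, 0 passed in limma (median 0.12). An unadjusted p under 0.05 was given by 7 that were higher in KO and 1 that was lower, where 21.3% of all tested genes had one. Their summed signal was 51193 and 50933 on the KO arrays, against 44224 and 38764 on the WT arrays, with none at 0. Cd163 gave 1.07 (limma adjusted p = 0.0507) and passed without WT replicate 1 and without KO replicate 2, and Cd14 gave 0.80 and passed without KO replicate 1. Mpeg1 gave -0.51 and Aif1 -0.37, both lower on both KO arrays, without passing. Of 9 osteoclast and fused macrophage genes, 5 were tested, 0 passed in limma, and 1 had an unadjusted p under 0.05 (median 0.17). Acp5 gave 0.53 and Nfatc1 0.37. Their summed signal was 12107 and 11159 on the KO arrays, against 9375 and 8542 on the WT arrays, most of it from Acp5 and Ctsk. Dcstamp, Ocstamp, Calcr and Oscar were too dim to be tested. Of these, Ocstamp had 23.4 and 18.2 on the KO arrays, against 80.9 and 57.8 on the WT arrays. Oscar had 46.8 and 36.6 on the KO arrays, against 55.8 and 65.0 on the WT arrays. Both were lower on both KO arrays, whereas Dcstamp and Calcr overlapped. Of all tested genes 27.5% stood lower on both KO arrays. The part of these cells in the result for Atp6v0d2 was not tested.

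Several milk genes fell, as Atp6v1c2 did, and others did not. Of 15 milk and secretory genes, 11 were tested, with a median of -1.27. Of these 11, 6 fell, 0 rose and 5 did not pass, where 1.36% of all tested genes fell and 1.21% rose. For 4 of the 6 the KO signals lay below the filter's 126 and the genes were tested through their WT signals, as Atp6v1c2 was, so nothing is read from this count. Csn1s1 fell by 7.67, and its signals were 37.1 and 35.6 on the KO arrays, against 10274 and 11025 on the WT arrays. Csn2 fell by 6.35, Csn1s2a fell by 5.72 and Btn1a1, which encodes butyrophilin of the milk fat globule, fell by 2.83. Xdh gave 0.65, higher on both KO arrays, and Mfge8 gave 0.003, both without passing. Of the 11 tested, 9 stood lower and 1 higher on both KO arrays, where 27.5% and 26.2% of all tested genes did. The filter bears on these counts too.

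By Euclidean distance between profiles of log2(signal + 16) over the 4 arrays, each centred on its own mean, the 5 tested genes nearest to Atp6v1c2 were Gjb2, Rspo1, Hepacam2, Col9a1 and Btn1a1, at distances of 0.34, 0.35, 0.40, 0.42 and 0.52. Gjb2, a gap junction gene, had 147 and 231 on the KO arrays, against 2054 and 2426 on the WT arrays. Hepacam2 had 68.8 and 82.0 on the KO arrays, against 726 and 739 on the WT arrays. In all 5 genes both KO arrays lay below both WT arrays. The measure rests on 4 arrays and mainly on the genotype difference itself, by which Atp6v1c2 was chosen.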

How the data were processed

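Per the labels' protocols, total RNA of mammary tissue was taken up in TRIzol and given a biotin label. The authors deposited MAS5 intensities of probe sets, on a linear scale (tool named per the submitters' processing notes; its version and settings are not given in the sources used here). For each array, the mean signal was 500.0 once 2% of probe sets were trimmed at each end, as read from the values.

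From these, log2(signal + 16) was computed, a scale that understates changes of dim genes. The 64 control probe sets were left out. Of the other 45037, 34945 had 1 gene symbol in the platform annotation, 932 had several and 9160 are unnamed here. Checking symbols through Entrez identifiers changed 0. Where a gene had several probe sets, the brightest by mean log2 value stood for it. Probe sets at or above the median mean log2 value of 7.15 were tested (22519 probe sets, 11360 genes). The KO minus WT difference was fitted in limma 3.58.1 under R 4.3.3 (lmFit, eBayes with trend, 2 residual degrees of freedom). P-values were adjusted by Benjamini-Hochberg across the whole set of tested probe sets, with a threshold of 0.05. The procedure was tested on simulated data. The number of arrays limits the precision.

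Genotype came from the labels. Replicates were numbered in order of deposit and pair nothing. The members, gene lists and motifs were chosen with earlier results of these data known. Named genes are the members, Stat5a, Stat5b, 5 epithelial genes that check the tissue, up to 4 genes past the threshold with the smallest p in each list (or, where none passed, up to 2 with the largest difference), and the 5 genes nearest to Atp6v1c2. Any other gene was named with its values in view. Alternatives were other pseudocounts, scalings, filters and probe set rules, no trend, and leaving out each array.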

Additional observations from a re-analysis of the deposited data

How the results depend on the processing

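The log2 difference of Atp6v1c2, by which the family was chosen, ran from -3.58 to -2.70 over the alternatives. With a filter at the 75th percentile it was not tested and 0 members passed. No other member passed in any alternative, and no V-ATPase subunit outside the members did. The change of the Atp6v1c2 to Atp6v1c1 ratio was -2.67 with a pseudocount of 64 and -3.61 to -2.80 with an array left out. The change for Atp6v0a4 was 0.63 with a pseudocount of 1, -0.08 with a pseudocount of 64 and 0.53 when probe sets were averaged per gene, and its range with an array left out was -0.02 to 0.39. The changes for subunits B and d moved by less than the spread between replicates.

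Of all genes 292 passed, against 27 with no filter, 127 with the 75th percentile filter, 137 without trend, 174 when probe sets were averaged per gene and 43 to 601 with an array left out. Higher calls made up 47.3% of them, 61.7% with median centring and 71.6% when centred on epithelial markers. The last of these shifted the median of all tested genes to 0.32 and every member upwards with it. A centring moves all log2 differences by a single amount, set by the array medians or by the epithelial markers. Why these differed between the genotypes was not tested. The calls of Foxi1, Rhbg and Car2 were followed through the same alternatives, a choice made after seeing the data. No paired analysis was possible because the labels give no replicate numbers. Signals below the array medians, as for Atp6v0a4 and Atp6v0d2, limit what can be said of those genes.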

Other observations

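Marker lists of other tissue parts were read on the same arrays. Of 13 skeletal muscle markers, 11 were tested and 5 rose, 0 fell and 6 did not pass, with a median log2 difference of 2.51. Their summed signal was 13501 and 7543 on the KO arrays, against 3623.5 and 1673 on the WT arrays. The 5 that passed all had WT signals below the filter's 126 and were tested through their KO signals, so nothing is read from their count. Of all tested genes 1.21% passed and were higher in KO. Over the alternatives the count ran between 10 when centred on epithelial markers and 0 with no filter or with the 75th percentile filter. Of 9 basal and myoepithelial markers tested, 8 did not pass (median -0.26), and Oxtr, which encodes the oxytocin receptor, fell by 0.89 (limma adjusted p = 0.0425). Passing lower in KO was seen in 1.36% of all tested genes. Oxtr did not pass with no filter, without trend, when probe sets were averaged per gene or when arrays were centred on epithelial markers. The median of the 9 was -0.94 without KO replicate 2 and 0.03 without KO replicate 1.

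Of 9 adipocyte markers, 7 were tested and 0 passed in limma, with 0 at an unadjusted p under 0.05 (median 0.15). Lep, the leptin gene, gave -0.76 and was lower past the threshold without KO replicate 1. Of 6 nerve and Schwann cell markers, 2 were tested and 0 passed in limma, with 1 at an unadjusted p under 0.05. Sox10, a transcription factor of Schwann cells that some mammary epithelial cells also express, had 977 and 1905 on the KO arrays, against 3038 and 3381 on the WT arrays (log2 difference -1.22, adjusted p = 0.0817), and S100b gave 0.37. Sox10 was lower past the threshold without KO replicate 2.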
